A study of Mus musculus with 6 samples.

Results

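The cyclin-dependent kinase inhibitors and the p53 axis were followed in immortalized murine embryonic fibroblasts (MEF), cells grown out of mouse embryos that go on dividing in culture. The set held 10 genes (Cdkn2a, Cdkn2b, Cdkn2c, Cdkn1a, Cdkn1b, Cdkn1c, Trp53, Mdm2, Perp and Ccng1) of the 34797 gene names on the array, and was read through 15 of its 55681 probes, those whose gene name in the scanner files is one of these symbols. The set was put together with these values known: it was chosen because Cdkn2a was lower in TIA1 KO MEF and not in TIAR KO MEF, and Perp was lower in TIAR KO MEF. Levels and differences of the 10 genes are therefore given as a description and carry no p-value. The 3 groups of cells were hybridized, each on 2 one-colour arrays: wild type (WT) MEF, labelled strain W4; MEF knocked out for TIA1, labelled strain BALB/c; and MEF knocked out for TIAR, labelled strain C57BL/6. TIA1 and TIAR, the latter encoded by Tial1, are related RNA-binding proteins that act in splicing and in translational control. All 3 groups, the controls included, were immortalized, and whether each group was more than 1 line was not given in the sources used here. Strain, line and genotype changed together in this design and cannot be told apart, and the TIA1 KO arrays also lay in another row of the slide, which cannot be told apart from the genotype either.

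Several products of these genes hold the cell cycle in check. The INK4 proteins (p16Ink4a from Cdkn2a, p15Ink4b from Cdkn2b, p18Ink4c from Cdkn2c) bind Cdk4 and Cdk6 and keep the retinoblastoma protein active, whereas the Cip/Kip proteins (p21 from Cdkn1a, p27 from Cdkn1b, p57 from Cdkn1c) bind cyclin-kinase complexes more broadly. Cdkn2a also encodes p19Arf in another reading frame, which binds Mdm2, the ubiquitin ligase that targets p53 for degradation. p53, the product of Trp53, in turn activates Cdkn1a, Mdm2, Ccng1 and Perp. In cultured MEF the Cdkn2a locus and p53 are known as the main barriers to unlimited growth.

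A spot intensity was corrected for its background, put on the log2 scale and normalized between arrays, so that a difference of 1 is a 2-fold difference. Errors are standard errors (SE) of a difference from the limma fit on the 4 arrays of a comparison. A probe was called when its Benjamini-Hochberg adjusted p over all probes was under 0.05 and its fold change above 2. Negative control spots, which match no mouse RNA, had median log2 levels between 6.49 and 6.80 on the 6 arrays, and between 16000 and 26254 probes per array were rated well above background by the scanner software. The TIA1 KO arrays stood apart: they had the lowest of these counts (16000 and 19920), the highest median intensities before normalization (458 and 218, against 119 to 152 on the other 4) and the widest spread between replicates (SD 0.44 on the log2 scale, against 0.27 in WT and 0.29 in TIAR KO). Scaling the arrays to a common median, in place of loess and quantile normalization, moved the median log2 difference of all probes in TIA1 KO from -0.09 to -0.67, and that of the 13729 probes that each of the 6 arrays rated well above background from -0.04 to -1.53. Those bright probes had medians of -0.44 in TIAR KO and 1.09 between the knockouts on that scale. A value of a bright probe on that scale is to be read against these medians. The part of this in the differences of TIA1 KO was not tested. Of the 15 probes, 9 were well above background on all 6 arrays and 2 on none.

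The knocked-out genes were read first. The brightest Tia1 probe had log2 levels of 10.72 and 8.54 in WT, 7.87 and 8.44 in TIA1 KO, and 9.56 and 9.58 in TIAR KO MEF. It was lower in TIA1 KO than in WT by 1.47 ± 0.79 and was not called (adjusted p = 0.288, limma), since 1 WT array lay next to the TIA1 KO arrays. For Tial1 the brightest probe was missing on 1 WT array as an outlier spot, and read 13.22 in the other WT array, 14.07 and 13.69 in TIA1 KO, and 9.57 and 11.60 in TIAR KO MEF. A second Tial1 probe read 11.71 and 11.09, 11.85 and 11.49, and 10.00 and 9.65 in the same order of groups, and was called lower in TIAR KO (log2 difference -1.58 ± 0.26, adjusted p = 0.0254, limma). Without WT replicate 1 or either TIAR KO array that call was lost (adjusted p between 0.0603 and 0.124, limma). The other Tia1 probes differed in TIA1 KO by -1.62 ± 0.42 and, for one rated well above background on 1 of 6 arrays, by 0.87 ± 0.28, and neither was called. The brighter probes of both genes were thus lower in the cells labelled as their knockout, in part without a call, and where these probes lie relative to the deleted sequence was not given in the sources used here. The control gene Gapdh differed from WT by -0.04 ± 0.16 in TIA1 KO and by 0.09 ± 0.14 in TIAR KO MEF, and on arrays scaled to a common median by -1.41, called lower, and by -0.15.

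Cdkn2a is shown with its sequences because its transcripts share the part that was measured. The gene has separate starts for Arf and for Ink4a, and both of its probes are annotated to both transcripts, so the array does not tell them apart. Each probe is 60 bases long and the bases 1 to 30 of each are printed here. The brightest probe lies on mm9 at chr4:88920405-88920464 and the other at chr4:88920543-88920602, on the minus strand, with 78 bases between them.
Cdkn2a probe 1: ggcatgagaaactgagcgaaggcggccgcg
Cdkn2a probe 2: cttctagcgatgctagcgtgtctagcatgt
The 250 bases before each start, from RefSeq on GRCm38.p6, minus strand, are at chr4:89294620-89294869 for the upstream start, which belongs to Arf, and at chr4:89282193-89282442 for the downstream start, which belongs to Ink4a. Capitals mark each CG dinucleotide.
Upstream start: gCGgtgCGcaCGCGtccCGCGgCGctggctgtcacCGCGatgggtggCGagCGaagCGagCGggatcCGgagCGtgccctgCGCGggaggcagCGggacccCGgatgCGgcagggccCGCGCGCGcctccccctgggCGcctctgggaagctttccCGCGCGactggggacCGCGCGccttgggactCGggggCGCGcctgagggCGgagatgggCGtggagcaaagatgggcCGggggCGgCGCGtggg
Downstream start: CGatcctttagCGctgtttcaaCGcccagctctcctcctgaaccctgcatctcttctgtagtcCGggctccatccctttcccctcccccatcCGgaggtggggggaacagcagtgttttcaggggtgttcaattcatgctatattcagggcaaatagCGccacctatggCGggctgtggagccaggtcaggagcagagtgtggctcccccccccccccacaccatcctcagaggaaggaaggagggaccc
The upstream window holds 40 CG dinucleotides, a number reached by 1.31% of the 32851 promoter windows of the same length. The downstream window holds 7, a number reached by 46.3% of them. The levels of Cdkn2a read both transcripts together.

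On the brightest Cdkn2a probe the WT arrays read 15.64 and 15.62, the TIA1 KO arrays 12.42 and 12.49, and the TIAR KO arrays 16.01 and 16.22. The TIA1 KO arrays stood far below the other 4, and replicates of a group lay within 0.21 of each other. The level in TIA1 KO was 9.05-fold lower than in WT, a log2 difference of -3.18 ± 0.15, and that in TIAR KO was higher by 0.48 ± 0.15, which came to 0.03 on arrays scaled to a common median. The second probe read 11.59 and 11.63 in WT, 7.73 and 8.51 in TIA1 KO, where 1 of the 2 arrays was well above background, and 11.25 and 11.89 in TIAR KO MEF. Its difference in TIA1 KO was -3.49 ± 0.31. In TIAR KO the second probe did not follow the first, with overlapping groups and a difference of -0.04 ± 0.24. The lower level in TIA1 KO was thus seen on both Cdkn2a probes.

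Cdkn2b, the neighbour of Cdkn2a on chromosome 4, was lower in the same cells. Its brightest probe, at chr4:88952276-88952335 on mm9, read 12.16 and 12.59 in WT, 10.67 and 10.41 in TIA1 KO, and 12.76 and 12.76 in TIAR KO MEF. Both TIA1 KO arrays lay below all the others. The log2 difference from WT was -1.84 ± 0.23 in TIA1 KO, a 3.57-fold lower level, and 0.39 ± 0.19 in TIAR KO. The second probe gave -1.71 ± 0.32 and 0.68 ± 0.28, and its difference in TIA1 KO was past the fold but was not called. The upward difference of the brightest Cdkn2b probe in TIAR KO changed sign, to -0.05, on arrays scaled to a common median. In TIA1 KO the brightest probe came to -3.38 on that scale and the second to -2.95, both called lower.

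The other INK4 genes were not called. Cdkn2c, elsewhere on chromosome 4, read 11.08 and 11.46 in WT, 11.24 and 11.23 in TIA1 KO, and 11.92 and 10.11 in TIAR KO MEF. The TIAR KO replicates lay on both sides of all other arrays, and the differences from WT were -0.03 ± 0.20 in TIA1 KO and -0.26 ± 0.58 in TIAR KO, both within their errors. On arrays scaled to a common median Cdkn2c came to -1.50 in TIA1 KO and was called lower there, as Cdkn2a and Cdkn2b were. Its value lay close to the median of -1.53 that probes well above background on all arrays had there. Cdkn2d, which encodes p19Ink4d and is not among the 10 genes, read 13.29 and 13.68, 12.53 and 12.60, and 12.70 and 12.56. It was below WT in both knockouts without being called, by -0.93 ± 0.20 in TIA1 KO (adjusted p = 0.0942, limma) and by -0.86 ± 0.19 in TIAR KO (adjusted p = 0.0605, limma). In TIA1 KO it came to -2.50 on arrays scaled to a common median and was called lower there.

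**Figure D1:**
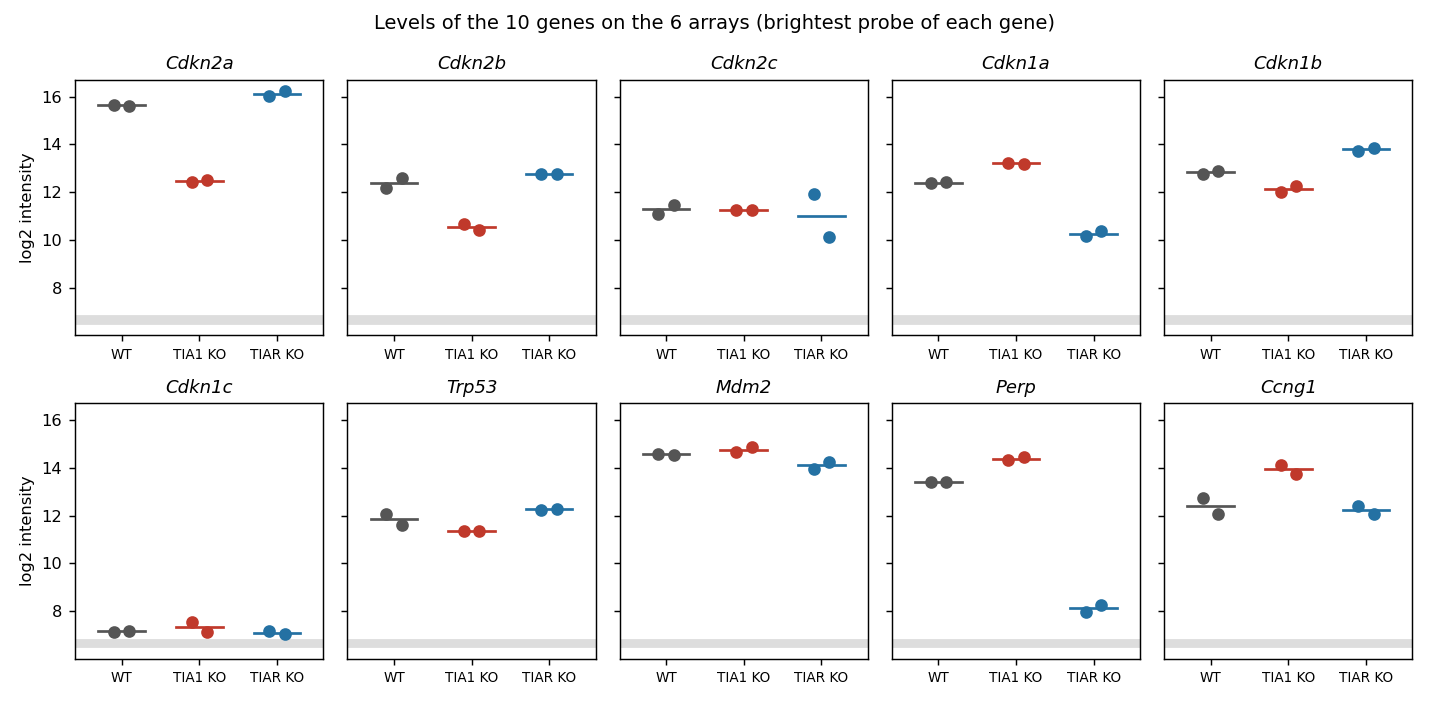
Log2 intensity of the brightest probe of each of the 10 genes (vertical axis) on the 2 arrays of each group (horizontal axis). Points are arrays, lines are group means and the grey band is the range of the negative control medians, 6.49 to 6.80. Cdkn2a and Cdkn2b stand low in TIA1 KO, Cdkn1a and Perp low in TIAR KO MEF.

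Among the Cip/Kip genes, Cdkn1a had the opposite order of the knockouts. It was read by 3 probes, of which the brightest, at chr17:29237377-29237436 on mm9, was printed in 10 spots on each array. That probe read 12.37 and 12.42 in WT, 13.24 and 13.17 in TIA1 KO, and 10.14 and 10.38 in TIAR KO MEF. The TIAR KO arrays were the lowest and the TIA1 KO arrays the highest, with no overlap between groups. The log2 difference from WT was -2.13 ± 0.16 in TIAR KO, a 4.39-fold lower level, and 0.81 ± 0.15 in TIA1 KO, where it turned to -0.71 on arrays scaled to a common median. A dimmer probe, at chr17:29227986-29228045, read 8.45 and 8.74 in WT, 8.93 and 9.28 in TIA1 KO, and 6.88 and 7.33 in TIAR KO MEF, where it was not well above background on either array. Its level in TIAR KO was at least 2.81-fold lower than in WT, a bound set by the lowest level rated well above background on each array or the probe's own level where that was higher. Here the probe's own level was the higher on both TIAR KO arrays, so the bound equals the plain log2 difference, -1.49 ± 0.21. The third probe was not well above background on any array.

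The start of Cdkn1a that lies upstream carries a known binding site of p53. The 250 bases before it, on GRCm38.p6 from RefSeq, plus strand, at chr17:29090729-29090978, are printed with the p53 response element in capitals, beside the same stretch before Ccng1, minus strand, at chr11:40755287-40755536.
Cdkn1a: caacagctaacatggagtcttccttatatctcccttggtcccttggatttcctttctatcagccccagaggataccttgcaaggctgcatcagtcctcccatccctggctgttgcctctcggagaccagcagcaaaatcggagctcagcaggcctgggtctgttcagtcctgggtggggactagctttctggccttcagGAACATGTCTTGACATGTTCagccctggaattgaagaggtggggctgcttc
Ccng1: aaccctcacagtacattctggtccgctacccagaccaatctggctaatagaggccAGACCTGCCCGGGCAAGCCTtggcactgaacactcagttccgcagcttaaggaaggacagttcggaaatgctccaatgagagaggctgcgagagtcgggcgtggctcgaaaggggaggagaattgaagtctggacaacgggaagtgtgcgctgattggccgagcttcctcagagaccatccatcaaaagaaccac
The p53 response element was searched as 2 adjoining decamers with the C and G at their cores matched and at most 1 other base off, a form that reads the same on both strands, and this limit was set with the Cdkn1a site known. Of all 32851 windows, 19 (0.0578%) held such a match. Of the 10 genes, 8 had a window, 11 windows in all, and these 2 held a match, each with 1 base off. None of the 44 windows of the 33 listed p53 target genes with a window did, which says that this form is not in those stretches and nothing of p53 binding there. Cdkn1a and Ccng1 did not move alike in TIAR KO MEF, as the values of Ccng1 show.

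Cdkn1b, the gene of p27, had its highest level in TIAR KO MEF. Its brightest probe read 12.75 and 12.89 in WT, 12.00 and 12.24 in TIA1 KO, and 13.73 and 13.84 in TIAR KO MEF, with no overlap between groups. The log2 differences from WT were -0.70 ± 0.17 and 0.96 ± 0.15, both under 2-fold. On arrays scaled to a common median they came to -2.30, called lower, and 0.53. A second, dim probe read 7.90 and 8.17, 6.94 and 7.25, and 8.14 and 7.76, and its difference in TIAR KO, -0.09 ± 0.20, did not repeat that of the first. Cdkn1c, the imprinted gene of p57, was not well above background on any array, with levels from 7.03 to 7.55.

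Trp53 and Mdm2 were not called against WT. Trp53, read through 1 probe in 2 spots, gave 12.08 and 11.61 in WT, 11.35 and 11.37 in TIA1 KO, and 12.24 and 12.28 in TIAR KO MEF. The WT replicates differed by about as much as WT differed from either knockout, with log2 differences of -0.48 ± 0.22 and 0.42 ± 0.20, which on arrays scaled to a common median came to -2.02, called lower, and close to 0. Mdm2, both an inhibitor and a target of p53, read 14.58 and 14.56, 14.67 and 14.88, and 13.98 and 14.26. Its differences were 0.20 ± 0.16 in TIA1 KO, which turned to -1.38 and was called lower on arrays scaled to a common median, and -0.45 ± 0.16 in TIAR KO. The median of probes well above background on all arrays was -1.53 in TIA1 KO on that scale.

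Perp, a membrane protein of desmosomes and a p53 effector in apoptosis, had the widest range of the 10 genes. Its probe lies on mm9 at chr10:18576697-18576756, plus strand, and begins as follows, bases 1 to 30 of 60 being printed to identify what was measured.
Perp probe: gaaaatttgggaatgcgtgtctctgaatac
WT arrays read 13.43 and 13.39, TIA1 KO arrays 14.32 and 14.46, and TIAR KO arrays 7.97 and 8.26. The TIAR KO arrays lay near the level of the negative controls, though still rated well above background. The level was 39.3-fold lower in TIAR KO than in WT, a log2 difference of -5.30 ± 0.16, and higher in TIA1 KO by 0.98 ± 0.15, a difference that turned to -0.50 on arrays scaled to a common median. Between the knockouts the log2 difference was -6.27 ± 0.18.

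Ccng1, the gene of cyclin G1 and a p53 target that feeds back on Mdm2, did not follow Perp or Cdkn1a in TIAR KO MEF. It read 12.76 and 12.09 in WT, 14.13 and 13.76 in TIA1 KO, and 12.43 and 12.06 in TIAR KO MEF. The TIA1 KO arrays were above the other 4, and the TIAR KO arrays overlapped with WT. The log2 difference was 1.53 ± 0.30 in TIA1 KO, past the fold but not called, and -0.04 on arrays scaled to a common median. It was -0.18 ± 0.27 in TIAR KO. Ccng1 was called in TIA1 KO with all 3 groups fitted together, with an intensity trend, or with only probes well above background. The 3 p53 targets among the 10 genes other than Mdm2 thus gave log2 differences of -2.13 (Cdkn1a), -5.30 (Perp) and -0.18 (Ccng1) in TIAR KO MEF.

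Over the 10 genes, 2 (Cdkn2a and Cdkn2b) were called in TIA1 KO MEF, both lower, where 4.51% of all gene names were called on their brightest probe and 1.63% were called lower. TIAR KO MEF had 2 calls (Cdkn1a and Perp), both lower, against 7.18% of all gene names called and 2.82% called lower. In the direct comparison of TIAR KO with TIA1 KO MEF, 6 were called against 4.18%, with Cdkn2a, Cdkn2b and Cdkn1b higher in TIAR KO (2.06% of all gene names were) and Cdkn1a, Perp and Ccng1 lower (2.12%). The call of Ccng1 between the knockouts (log2 difference -1.71) was lost with a normexp offset of 16, with quantile normalization without loess, with the authors' log2 values, with processed intensities, when the fold itself was tested, and on arrays scaled to a common median, where it came to -0.59 and Trp53 was called higher instead, at 2.01. Since the genes were chosen from these contrasts, nothing is read from these counts. The arrays of the groups did not overlap for 8, 7 and 8 of the 10 genes in the 3 comparisons, against 65.7%, 50.9% and 61.3% of all gene names. The median log2 difference of the 10 genes was 0.07, -0.12 and -0.23, that of all gene names -0.07, -0.01 and 0.04. Calls in comparisons with TIA1 KO MEF depended on single arrays. Without either WT array no probe on the whole array was called between TIA1 KO and WT (7202 and 7415 probes had an unadjusted limma p under 0.05), and without either TIAR KO array none was called between the knockouts (6318 and 6402 probes). The value of Cdkn2a in TIA1 KO moved by at most 0.04 and that of Perp in TIAR KO by at most 0.15 when an array was left out. Among these differences the widest move was that of Cdkn2c in TIAR KO, by up to 0.90.

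**Figure D2:**
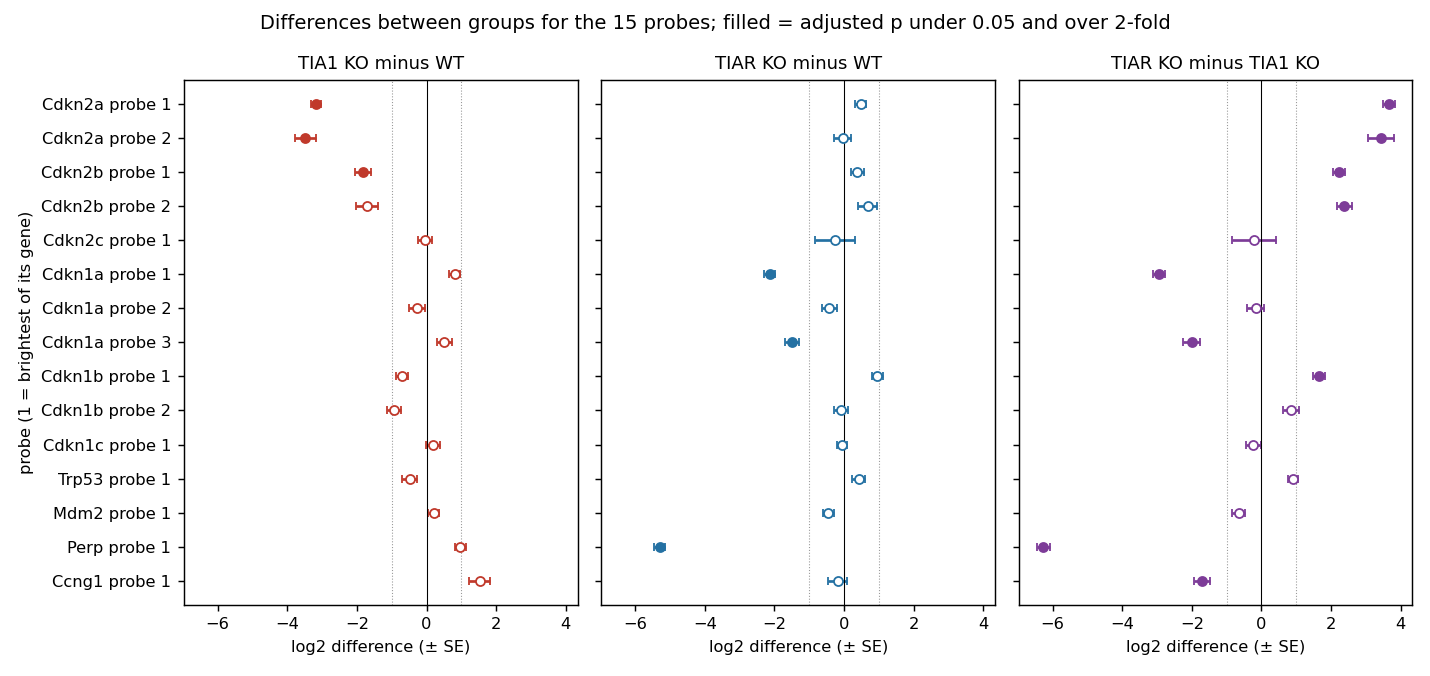
Log2 difference with its SE (horizontal axis) for the 15 probes of the 10 genes (vertical axis), in 3 panels for TIA1 KO minus WT, TIAR KO minus WT and TIAR KO minus TIA1 KO. Filled points were called, and the dotted lines mark a 2-fold difference. The Cdkn2a probes are at -3.18 and -3.49 in the left panel and at 0.48 and -0.04 in the middle one, where Perp is at -5.30.

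**Figure D3:**
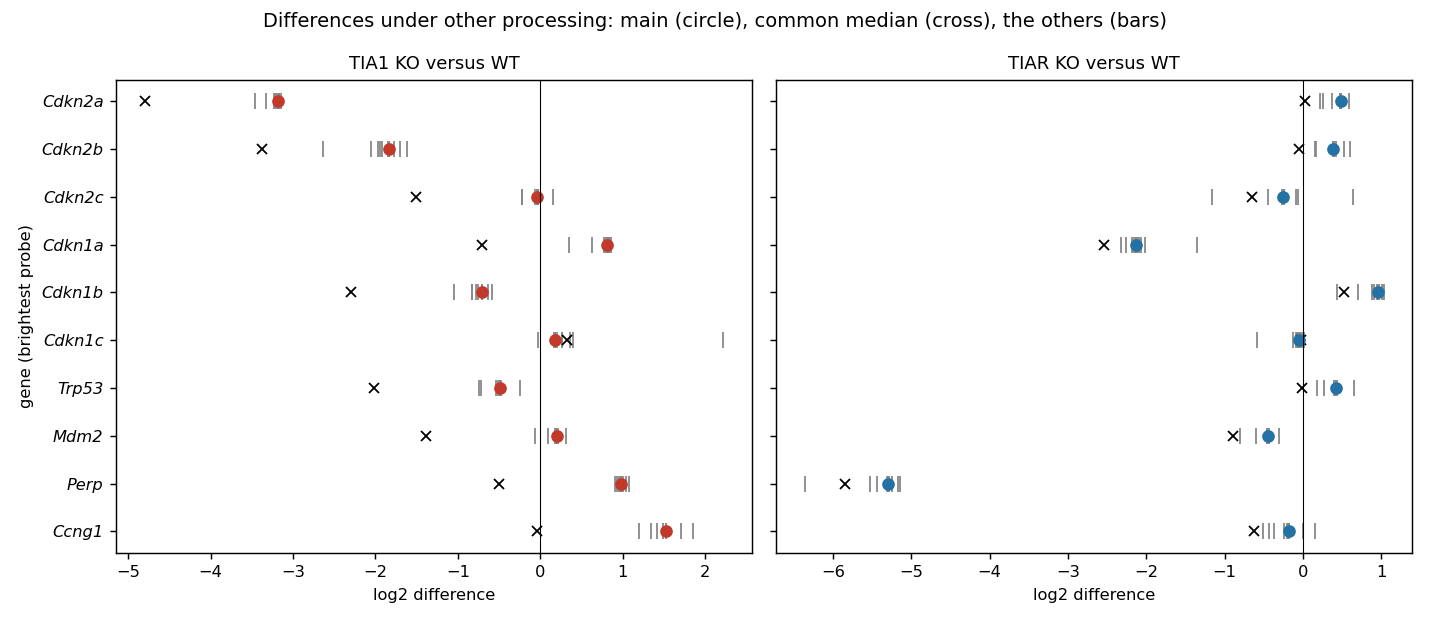
Log2 difference from WT of the 10 genes (brightest probe, vertical axis) as processed here (circle), with arrays scaled to a common median (cross) and under the other alternatives (bars), for TIA1 KO on the left and TIAR KO on the right. Cdkn2a stayed between -4.79 and -3.14 in TIA1 KO and Perp between -6.36 and -5.15 in TIAR KO MEF, whereas the upward values of Cdkn1a and Perp in TIA1 KO crossed 0 at the cross. On the scale of the cross, probes well above background on all arrays had a median of -1.53 in TIA1 KO.

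Other targets of p53 were read from a list of 41 genes, of which 40 were measured and 30 were well above background on all arrays. In TIA1 KO MEF 2 rose and none fell, with a list median of 0.15 against -0.07 over all gene names. These were Psrc1, a spindle protein (log2 difference 1.65 ± 0.15, adjusted p = 0.0206, limma), and Zmat3, an RNA-binding protein (1.25 ± 0.15, adjusted p = 0.0381, limma), and on arrays scaled to a common median neither was called, with 0.31 for Psrc1 and -0.33 for Zmat3. Of these targets 1 rose and 3 fell in TIAR KO MEF, with a list median of -0.31 against -0.01. Steap3, a ferrireductase, went from 11.03 and 11.13 in WT to 9.39 and 9.63 (adjusted p = 0.00538, limma), and Ckap2, a protein of spindle microtubules, from 12.43 and 12.47 to 11.33 and 10.44 (adjusted p = 0.0433, limma). Tap1, a peptide transporter of antigen presentation, fell at least 2.68-fold, as it was not well above background in TIAR KO MEF (adjusted p = 0.00524, limma). The call of Ckap2 was lost without either WT array (adjusted p = 0.122 for both, limma) or TIAR KO replicate 2 (adjusted p = 0.0598). Psrc1 rose by 1.36 on the log2 scale. The apoptosis genes Bax and Bbc3 were not called in either knockout, with log2 differences of 0.31 ± 0.21 and 0.20 ± 0.15 in TIA1 KO and -0.40 ± 0.20 and 0.42 ± 0.23 in TIAR KO. Both turned negative in TIA1 KO on arrays scaled to a common median, to -1.27 and -1.37, and were called lower. Probes well above background on all arrays had a median of -1.53 there. Between the knockouts Steap3 and Fas, a death receptor, were lower in TIAR KO, by 2.34 and 1.25 on the log2 scale. Neither was called on arrays scaled to a common median (-1.29 and -0.55), where 6 other targets were called higher in TIAR KO and none lower. In all, 2, 4 and 2 of the 40 genes were called, and 38, 36 and 38 were not, where 4.51%, 7.18% and 4.18% of all gene names were called, so that the list was called about as often as genes at large.

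**Figure D4:**
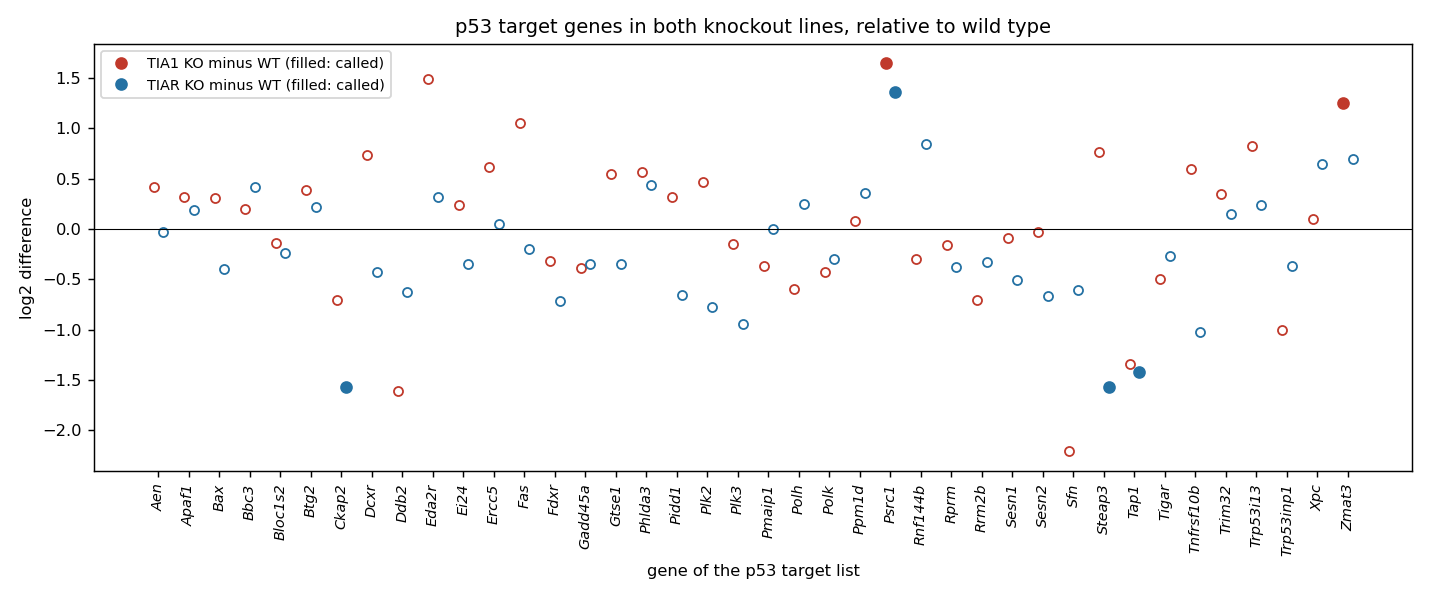
Log2 difference from WT (vertical axis) of the 40 measured genes of the p53 target list (horizontal axis), in TIA1 KO (red) and TIAR KO (blue) MEF, with called genes filled. The filled points are Psrc1 and Zmat3 in red, and Ckap2, Psrc1, Steap3 and Tap1 in blue.

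Regulators of p53, 29 genes that include kinases, ligases and deubiquitinases acting on it, were called 0 and 1 times against WT, where 4.51% and 7.18% of all gene names were called. None was called in TIA1 KO MEF by limma, although 11 had an unadjusted p under 0.05, and the largest difference was that of the checkpoint kinase gene Chek2 (-1.49 ± 0.33, adjusted p = 0.0957, and -2.16, called, on arrays scaled to a common median). Trim24, a ligase for p53, was the 1 gene that rose in TIAR KO MEF (1.02 ± 0.15, adjusted p = 0.0171, limma). Its call was lost without any 1 of the 4 arrays (adjusted p between 0.0586 and 0.0859, limma). The list medians were 0.02 and -0.05.

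Regulators of the INK4-ARF locus, 26 genes that hold the Polycomb proteins which silence it, were all measured, and 2 and 3 of them were called in TIA1 KO and TIAR KO, where 4.51% and 7.18% of all gene names were. In TIA1 KO MEF 2 fell: Tbx3, a T-box repressor of Arf (log2 difference -2.66 ± 0.15, adjusted p = 0.00773, limma), and Id1, a helix-loop-helix antagonist that holds down p16Ink4a (-1.57 ± 0.17, adjusted p = 0.0283, limma). Tbx3 read 12.49 and 12.53 in WT, 9.82 and 9.87 in TIA1 KO, where 1 of 2 arrays was well above background, and 12.62 and 12.72 in TIAR KO MEF, and so had the group order of Cdkn2a. In TIAR KO MEF 2 rose, the Polycomb gene Cbx2 (1.60 ± 0.17) and the demethylase gene Kdm6b (1.31 ± 0.15), and 1 fell, the Polycomb gene Phc2 (-1.05 ± 0.14), with adjusted p-values of 0.00573, 0.00867 and 0.0135 by limma. Phc2 was not called when any 1 array was left out (adjusted p between 0.058 and 0.0741, limma). Bmi1 and Ezh2, the best known repressors of the locus, were not called, with log2 differences of 0.48 ± 0.37 and -0.83 ± 0.25 in TIA1 KO and 1.06 ± 0.34 and -0.19 ± 0.19 in TIAR KO. In TIA1 KO they came to -1.07 and, called lower, -2.41 on arrays scaled to a common median. The list medians were -0.17 and 0.12.

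The partners and relatives of the inhibitors were read against the same shares of all gene names, 4.51% and 7.18%. Of 16 kinases, cyclins and retinoblastoma proteins, none was called in TIA1 KO MEF by limma (4 had an unadjusted p under 0.05), where Ccnb1, the gene of a mitotic cyclin, differed most (-0.95 ± 0.15, adjusted p = 0.0604, and -2.56, called, on arrays scaled to a common median). Rb1, the retinoblastoma gene, fell in TIAR KO MEF, from 11.06 and 10.89 in WT to 9.26 and 9.49 (-1.60 ± 0.16, adjusted p = 0.00541, limma). Cdk4, a target of the INK4 proteins, differed by -0.32 ± 0.17 and 0.21 ± 0.14, the former coming to -1.83, called lower, on arrays scaled to a common median. Of 18 genes of inhibitor turnover and related proteins, none was called in TIA1 KO MEF by limma (7 had an unadjusted p under 0.05). In TIAR KO MEF Rnf123, a subunit of a ligase for p27, fell (-1.81 ± 0.24, adjusted p = 0.014, limma) and Ccng2, a relative of Ccng1, rose (1.53 ± 0.16, adjusted p = 0.00547, limma). The call of Rnf123 was lost without WT replicate 2 or TIAR KO replicate 2 (adjusted p = 0.0533 and 0.0519, limma). Skp2, another ligase subunit for p27, was not called in either, but was at -2.20 and called lower in TIA1 KO on arrays scaled to a common median. Counts this low are near those shares.

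The counts of these lists depended on the scaling, above all in TIA1 KO. On arrays scaled to a common median, 18 of 40 p53 targets, 16 of 29 p53 regulators, 14 of 26 regulators of the INK4-ARF locus, 12 of 16 kinases, cyclins and retinoblastoma proteins, and 15 of 18 genes of inhibitor turnover were called lower, where 30.2% of all gene names were. In the same order, 30, 23, 19, 12 and 15 genes of these lists were well above background on all arrays. Such probes had a median of -1.53 in TIA1 KO on that scale, and the share of them called lower was not computed. Nothing is therefore read from counts above 30.2%. Called higher there was 1 p53 target and no gene of the other 4 lists, against 4.22% of all gene names. In TIAR KO that scaling gave 1 p53 target higher and 7 lower, 2 p53 regulators lower, 1 regulator of the INK4-ARF locus higher and 2 lower, 3 kinases, cyclins and retinoblastoma proteins lower, and 1 gene of inhibitor turnover higher and 4 lower, while Trim24 (0.58) and Kdm6b (0.93) were not called. Of all gene names, 3.29% were called higher and 5.87% lower there. Between the knockouts 6, 10, 10, 8 and 5 genes of the 5 lists, in the same order, were called higher in TIAR KO and none lower, against 16.1% and 2.41% of all gene names. Probes well above background on all arrays had a median of 1.09 there, so nothing is read from counts above these shares either.

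Since Perp lies in desmosomes, 18 desmosome and keratin genes were read, of which 4 were well above background on all arrays and 7 on none. In each knockout 4 of them were called, where 4.51% and 7.18% of all gene names were. In TIA1 KO MEF 3 fell, the plakophilin genes Pkp1 (-3.10 ± 0.35), Pkp2 (-1.82 ± 0.19) and Pkp4 (-1.13 ± 0.15), and 1 rose, Krt8 (1.23 ± 0.17), a keratin gene, with adjusted p-values of 0.0329, 0.0267, 0.0431 and 0.0444 by limma. On arrays scaled to a common median Krt8 came to 0.41 and was not called. In TIAR KO MEF 3 rose and 1 fell: Ppl, the periplakin gene (2.83 ± 0.16, adjusted p = 0.000911, limma), and Krt18 (2.72 ± 0.14, adjusted p = 0.000707, limma) and Krt8 (1.23 ± 0.15, adjusted p = 0.0099, limma) were higher, and Pkp1 lower (-2.80 ± 0.14, adjusted p = 0.000684, limma). Without TIAR KO replicate 2 the call of Krt8 was lost there (adjusted p = 0.0606, limma). Pkp1 was thus called lower in both knockouts, and Perp in TIAR KO alone. Of the 11 imprinted genes near Cdkn1c 1 and 3 were called in TIA1 KO and TIAR KO, against the same shares. On arrays scaled to a common median none was called higher and 4 lower in TIA1 KO, against 4.22% and 30.2% of all gene names. Cd81, a tetraspanin gene, rose in both knockouts, by 1.61 ± 0.15 in TIA1 KO (adjusted p = 0.0215, limma) and by 1.64 ± 0.14 in TIAR KO (adjusted p = 0.00302, limma), but in TIA1 KO it came to 0.03 on arrays scaled to a common median. Phlda2, a growth restrainer of the placenta, and Slc22a18, a transporter gene, fell at least 2.03-fold and at least 2.05-fold in TIAR KO MEF, where neither was well above background. The call of Phlda2 was lost without either TIAR KO array (adjusted p = 0.0672 and 0.0704, limma), and that of Slc22a18 without any 1 array (adjusted p between 0.0566 and 0.103).

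The surroundings of Cdkn2a were read from 90 other probes within 1 Mb of its brightest probe, of which 10 were well above background on all arrays and 49 on none. In TIA1 KO MEF 9 of the 90 were called, 3 higher and 6 lower, where 3.54% of all probes were called. Mtap, the gene of methylthioadenosine phosphorylase, lies 94.2 kb from the Cdkn2a probe, at chr4:88826213-88826272 on mm9. It read 12.39 and 12.46 in WT, 9.47 and 9.59 in TIA1 KO, where 1 of 2 arrays was well above background, and 12.72 and 12.97 in TIAR KO MEF. The log2 difference was -2.89 ± 0.15 in TIA1 KO (adjusted p = 0.00728, limma) and 0.42 ± 0.16 in TIAR KO (adjusted p = 0.229, limma). Thus Mtap, Cdkn2a and, 31.9 kb to its other side, Cdkn2b were each lower in TIA1 KO MEF and not called in TIAR KO MEF. Further out on the side of Cdkn2b, 3 probes of a lincRNA region 210 kb away fell at least 3.85-, 1.86- and 2.39-fold in TIA1 KO MEF, none of them well above background there. On the other side, 3 probes of lincRNA regions 337 to 368 kb away rose, by 3.18 ± 0.36 and 2.37 ± 0.16 for 2 of them and at least 3.51-fold for the third. Klhl9, an adaptor of a ubiquitin ligase 556 kb away, was not called, with log2 differences of 0.09 ± 0.16 and -0.12 ± 0.16. On arrays scaled to a common median the former came to -1.50 and was called. Probes well above background on all arrays had a median of -1.53 there. On that scale 6 of the 90 probes were called higher and 15 lower in TIA1 KO, against 3.37% and 25% of all probes. The interferon alpha genes and Ifnb1 were well above background on at most 4 arrays and not called in either knockout.

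In TIAR KO MEF 9 of the 90 probes were called, 1 higher and 8 lower, where 5.76% of all probes were called. Probes for the predicted genes Gm13271, Gm13286, Gm13284, Gm13272 and Gm13275, 479 to 519 kb from Cdkn2a, fell by log2 differences from -3.57 ± 0.15 (Gm13275) to -1.81 ± 0.15 (Gm13271). They belong to a family of closely related genes, so a probe may read several of them. Gm13275 read 11.74 and 11.89 in WT, 10.27 and 10.46 in TIA1 KO, and 8.28 and 8.21 in TIAR KO MEF, and was called lower in TIA1 KO as well (-1.45 ± 0.17, adjusted p = 0.0346, limma), as was 1 of the 2 Gm13271 probes (-1.68 ± 0.17, adjusted p = 0.0246, limma). The probe that rose was for Zfp352, a zinc finger gene 972 kb away (1.29 ± 0.15, adjusted p = 0.00805, limma, and 0.0505 without TIAR KO replicate 1). It was at 1.00 and not called on arrays scaled to a common median, where 7 of the 90 probes were called, all lower, against 2.56% of all probes called higher and 4.88% lower. The other 2 probes called lower were an unnamed probe beside Gm13271 and a lincRNA probe 337 kb away, where TIA1 KO was higher, and both calls were lost when some single arrays were left out (adjusted p between 0.0571 and 0.137, limma). The unnamed probe was also not called on arrays scaled to a common median (-0.96).

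**Figure D5:**
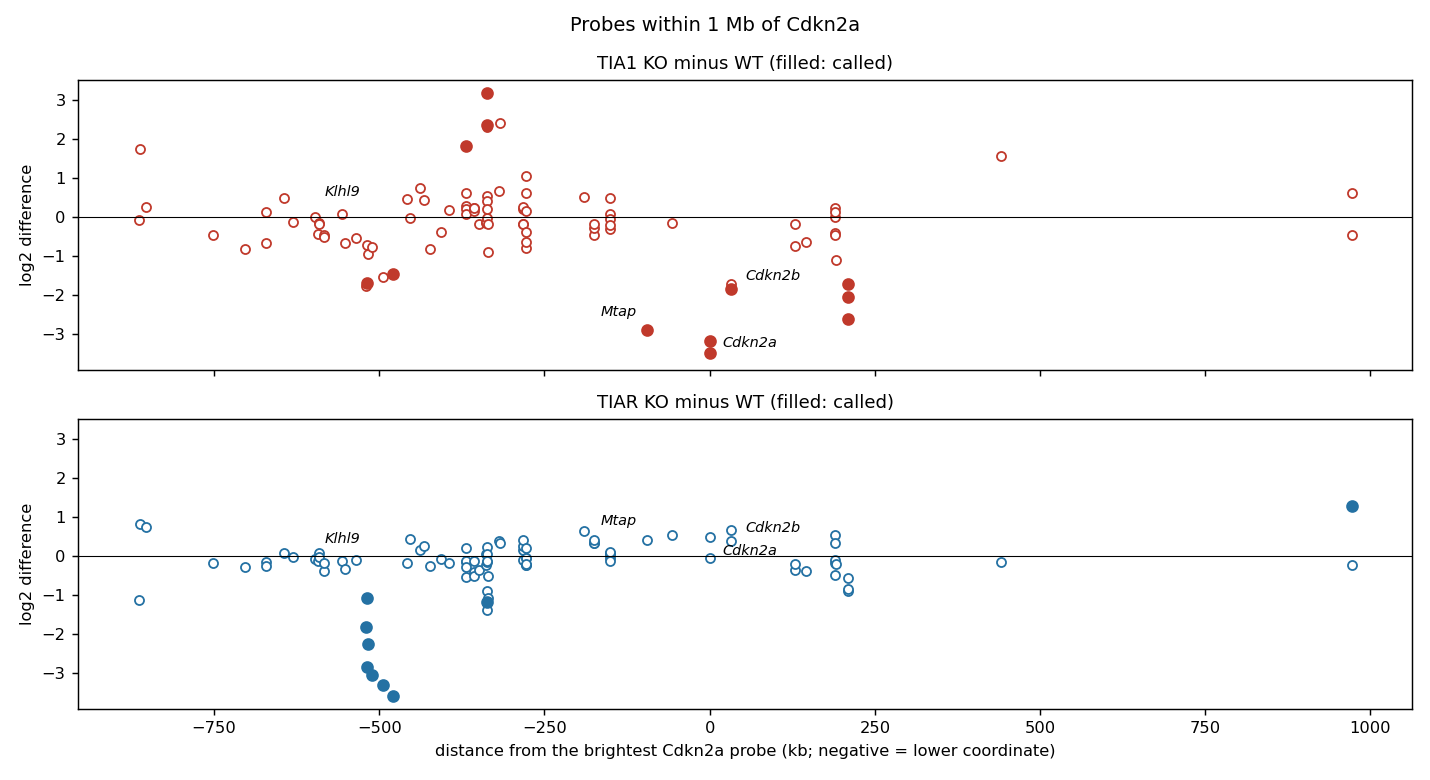
Log2 difference from WT (vertical axis) of the 94 probes within 1 Mb of Cdkn2a by their distance in kb from its brightest probe (horizontal axis), with TIA1 KO above and TIAR KO below, called probes filled. Mtap, Cdkn2a and Cdkn2b lie low in the upper panel and near 0 in the lower, where the probes 479 to 519 kb away are low.

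The genes with levels most like those of Cdkn2a over the 6 arrays were found by the root mean square difference of centred log2 values. They were Mtap (0.15), Mnda (0.17), Nrn1 (0.26), Padi3 (0.27) and Lgals9 (0.29), and as they were picked for likeness their differences are a description. Nrn1, the gene of neuritin, read 13.44 and 13.45 in WT, 10.41 and 10.39 in TIA1 KO, and 13.59 and 13.43 in TIAR KO MEF. For Perp the genes were Fgf7 (0.29), Btbd11 (0.34), Gdnf (0.49), Gm5067 (0.52) and Spp1 (0.63). Fgf7, the gene of keratinocyte growth factor, read 12.61 and 12.62, 14.09 and 14.28, and 7.90 and 7.90, and Gdnf, the gene of a glial growth factor, 11.87 and 11.92, 13.96 and 14.07, and 7.45 and 7.41. Like Perp, both were lowest in TIAR KO and, on this scale, highest in TIA1 KO MEF.

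Markers of cell type were read to set these levels against the cells. Of 11 fibroblast markers, 8 were called higher in TIA1 KO MEF, 9 were in TIAR KO MEF, and none was called lower, where 4.51% and 7.18% of all gene names were called in either direction, shares that hold for the other marker lists too. In TIA1 KO 6 were called higher and 1 lower on arrays scaled to a common median, against 4.22% and 30.2%. Their summed linear level was 538863 and 571701 in WT, 1501083 and 1489423 in TIA1 KO, and 1444707 and 1468251 in TIAR KO MEF. The probe with the brightest signal was that of S100a4 in WT, and of Col1a2 on the TIA1 KO arrays and 1 TIAR KO array, which does not rank their transcripts, since signals of different probes are not on 1 scale. Pdgfra was not well above background on either WT array (6.37 and 6.40) and was at least 9.52-fold higher in TIA1 KO and 26.1-fold in TIAR KO. Col3a1, a fibrillar collagen gene, read 9.52 and 9.08 in WT and between 15.16 and 16.65 on the other 4 arrays, so the cells labelled WT had less of several fibroblast genes than both knockouts. Thy1 and Dcn set the knockouts apart, with TIAR KO above TIA1 KO by log2 differences of 7.49 and 6.48, and above WT by 7.98 and 9.15. Thy1 was not well above background on either TIA1 KO array or on WT replicate 1. Dcn was not on TIA1 KO replicate 1 or WT replicate 1. Fbln2 went the other way between the knockouts, at -1.92. Of the defining markers of other types, Ptprc and Adgre1 for macrophages, Cdh5 and Tie1 for endothelium, and Myod1 and Myog for muscle were not well above background on any array. Other genes of these lists were: Cd14, Itgam and Cd68 of the macrophage list and Kdr of the endothelial list on all 6 arrays, Csf1r on 5, Pecam1 on 4 and Des of the muscle list on 3. Tyrobp was so rated on TIA1 KO replicate 2 alone, and Tek on TIAR KO replicate 2 alone. Epcam was so rated on 1 array, and Cdh1 on the TIAR KO arrays alone, where it was at least 2.53-fold higher than in WT. Of 9 epithelial markers 2 and 3 rose in TIA1 KO and TIAR KO. On arrays scaled to a common median none was called higher in TIA1 KO and 1 was called lower. Krt19 turned to -0.53 there. The Krt19 probe had the brightest signal on all 6 arrays, with summed levels between 5968 and 11870. Of 8 macrophage markers 2 rose in TIA1 KO (Itgam and Tyrobp, the former at 0.25 and not called on arrays scaled to a common median, where Cd14 and Cd68 were called lower, at -1.27 and -1.73) and 1 fell in TIAR KO (Cd14), and 6 endothelial markers had no call by limma in either. In TIA1 KO 1 of these had an unadjusted p under 0.05, and in TIAR KO Tek passed the adjusted p but not the fold (0.81 ± 0.16, adjusted p = 0.042, limma). Of 5 muscle markers, Des rose in TIAR KO. Some of these marker calls in TIAR KO were lost when an array was left out: Col1a2 and Cd14 without either TIAR KO array (adjusted p between 0.06 and 0.0902, limma), and Des without WT replicate 1 or TIAR KO replicate 1 (adjusted p = 0.0533 and 0.0614). Between the knockouts, where 4.18% of all gene names were called, Cd68 was called higher in TIAR KO and Cd14, Itgam and Tyrobp lower. Of the fibroblast markers 3 were called higher there and 1 lower, of the epithelial 2 higher and of the muscle 1 higher. On arrays scaled to a common median 7 fibroblast markers were called higher and none lower, and 1 macrophage marker higher and 1 lower. Of all gene names, 16.1% and 2.41% were. In bulk RNA, fewer cells of a type and less RNA per cell cannot be told apart, and the part of these markers in the levels of the 10 genes was not tested.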

How the data were processed

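The 3 kinds of MEF were hybridized to 6 one-colour Agilent arrays, 2 per group, which the labels call independent replicates, and precision is limited by this small number. The authors deposited, per array, spot intensities on a linear scale, as Feature Extraction 10.7.3.1 measured them, with local background and quality ratings and without normalization between arrays. Normalized log2 values that the authors deposited, made with limma per the submitters' processing notes, were an alternative here and correlated with the values used at 0.997 or higher. Probe positions are those of mm9 in the files.

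Mean intensities were corrected with normexp (offset 50), put on the log2 scale, adjusted by 1 pass of loess, quantile normalized over all spots and averaged per probe, after control and outlier spots were left out. Dim probes were kept. Each comparison was fitted on its own 4 arrays with limma (lmFit, eBayes), with Benjamini-Hochberg adjustment over 55681 probes, and a probe was called at an adjusted p under 0.05 and a fold above 2, as the methods state. A gene was read from its brightest probe, and the rating well above background needed 50% or more of a probe's spots on that array. The fit was tested on simulated data.

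The 10 genes and the gene lists were chosen with earlier results of these data known. Named were every probe of the 10 genes, Tia1, Tial1 and Gapdh, up to 3 called genes per list and comparison with the largest change (or the largest change where none was called), Cdkn2d, gene probes within 1 Mb of Cdkn2a, and the 5 genes most like Cdkn2a and Perp. Bax, Bbc3, Bmi1, Ezh2, Cdk4, Skp2 and the marker genes were named outside this rule, after their values were seen. Of the lists, 1 gene (Trp53cor1) was not found on the array, and some genes were left out of them and are not reported here. Computations used R 4.3.3 with limma 3.58.1 and the data.table package (1.17.8), and Python 3.11.15 with pandas 2.3.3 and matplotlib 3.10.9.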

Additional observations from a re-analysis of the deposited data

How the results depend on the processing

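Cdkn2a and Cdkn2b were lower in TIA1 KO, and Cdkn1a and Perp in TIAR KO, than in WT under each of 15 alternatives, and no called difference of the 10 genes changed sign. In TIAR KO against WT, 2 of the 10 genes were called under each alternative. In TIA1 KO against WT the count of 2 went to 0 with the scanner software's processed intensities at the 75th percentile, to 1 (Cdkn2a) when the fold above 2 itself was tested, to 6, all lower, with arrays scaled to a common median, and lay between 0 and 3 when an array was left out. In TIAR KO against TIA1 KO the count of 6 went to 2 with processed intensities, to 3 when the fold itself was tested, and lay between 0 and 6 when an array was left out. With an array left out, the lone array of its group was taken to vary like the other group. The cause was not tested.

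Replicate numbers did not pair the arrays: deviations of same-numbered arrays correlated at 0.08, 0.03 and -0.07 between groups. With the replicate number as a block, 1, 2 and 0 of the 10 genes were called in the 3 comparisons, and 671, 3308 and 0 probes in all (10684 probes had an unadjusted limma p under 0.05 in the last).

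Over all probes, 1969, 3206 and 1866 were called. A common median gave 15801, 4139 and 8307, with 11.9%, 34.4% and 87.2% of calls higher in place of 61.6%, 58.8% and 51.3%, and moved the median log2 difference from -0.09 to -0.67 in TIA1 KO and from 0.05 to 0.63 between the knockouts. With processed intensities 0, 2526 and 1509 were called (27765 probes had an unadjusted p under 0.05 in the first), the share higher between the knockouts was 8.28%, and the median log2 difference was 1.98 in TIA1 KO and -1.85 between the knockouts. Testing the fold itself gave 440, 1016 and 409. All 3 groups fitted together gave 3986 and 3183 in the first and the last comparison, the authors' log2 values gave 1309 in the first, and probes well above background alone 2910 in the last. Leaving out an array gave 0 to 10735 in the first and 0 to 10086 in the last. Counts for all probes and for the 7 gene lists stayed within 1.5 times in 63, 92 and 59 of 120 cases per comparison.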
